A study of Mus musculus with 24 samples.

Results

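Gene deserts are long stretches of a chromosome without protein-coding genes, and the accessible DNA inside them was followed here while mouse embryonic stem cells differentiated towards heart muscle cells. Peaks of all 12 deposited ATAC-seq peak lists were merged into 128679 regions. A region was counted as a desert region when its centre lay more than 500 kb from every protein-coding gene body of the mouse genome (mm10), and 6072 regions, or 4.72%, met that rule. ATAC-seq marks open DNA by letting the Tn5 transposase insert sequencing adapters into it. The 24 samples came from A2lox.cre, an established mouse embryonic stem cell line with a docking site for inducible transgenes, which all groups share, and besides the 2i condition the labels name no allele or agent for any group. Each of 12 time points was sampled in 2 biological replicates. The time points were the 2i stage, in which inhibitors hold stem cells in naive pluripotency, then D0 to D8, D10 and D15, where D stands for day, of a course from stem cell to cardiomyocyte. Per the labels, both replicates share 1 peak list, so no value below has a replicate spread, no difference between 2 lists was tested, and the tests concern the order in time. All samples are of this 1 line, and peak lists hold no expression, so the share of cells that had become cardiomyocytes was not measured.

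Regulatory DNA in deserts can act on genes a long way off, because the chromosome folds and brings a distal enhancer close to a promoter. Many deserts flank genes for developmental transcription factors or for neural adhesion molecules, and some are known to hold enhancers of those genes. Other deserts are late replicating, rich in A and T and attached to the nuclear lamina, a state in which DNA is usually closed.

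The sequence more than 500 kb from protein-coding genes covered 230 Mb, or 8.85% of the span between the first and last genes of the 20 chromosomes used. It held 26.4 merged regions per Mb, against 49.4 per Mb over the whole span. Desert regions lay in 259 deserts, here the gaps between neighbouring protein-coding genes and 2 gaps before the first gene of a chromosome, with a median of 15 regions per desert. Of 281 gaps longer than 1000 kb between 2 genes, 24 held none. The median distance to a protein-coding gene was 784 kb. Deserts are defined here by protein-coding genes, and only 72 regions were more than 500 kb from any annotated gene once non-coding genes were included.

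A small set of desert regions reached an annotated transcript start. Of the 6072, 31 (0.511%) overlapped RefSeq promoter windows, which run from 250 bases before to 50 bases after the start of a gene, and all 31 genes with such a window were long non-coding RNA genes (lncRNAs). Of these 31 regions, 6 (19.4%) were called in 6 or more of the 12 lists, against 3.95% of all desert regions. Over all 128679 merged regions that share was 18.7%, close to the value for the 31. The windows of these 6 regions are shown because they are the desert regions with both an annotated start and calls in 6 or more lists. Each is printed 5′ to 3′ on the strand of the gene, from RefSeq on GRCm38.p6, the assembly that mm10 names, and capitals mark the bases inside the merged accessible region.
Gm32810: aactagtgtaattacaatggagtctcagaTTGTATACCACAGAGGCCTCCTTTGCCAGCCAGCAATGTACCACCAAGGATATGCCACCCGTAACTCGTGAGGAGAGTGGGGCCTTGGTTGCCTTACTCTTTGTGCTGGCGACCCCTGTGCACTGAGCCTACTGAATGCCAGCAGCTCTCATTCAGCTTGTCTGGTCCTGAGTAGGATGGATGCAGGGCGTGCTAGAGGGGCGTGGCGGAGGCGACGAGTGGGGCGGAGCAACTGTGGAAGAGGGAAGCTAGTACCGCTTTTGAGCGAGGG
Gm35827: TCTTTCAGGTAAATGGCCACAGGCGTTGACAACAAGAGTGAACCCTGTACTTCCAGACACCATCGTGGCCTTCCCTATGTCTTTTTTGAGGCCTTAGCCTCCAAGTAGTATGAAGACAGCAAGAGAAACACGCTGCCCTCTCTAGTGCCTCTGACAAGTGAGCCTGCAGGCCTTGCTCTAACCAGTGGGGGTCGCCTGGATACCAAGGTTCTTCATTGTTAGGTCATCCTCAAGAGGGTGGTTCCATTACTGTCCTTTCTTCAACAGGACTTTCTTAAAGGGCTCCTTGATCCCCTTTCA
C330004P14Rik: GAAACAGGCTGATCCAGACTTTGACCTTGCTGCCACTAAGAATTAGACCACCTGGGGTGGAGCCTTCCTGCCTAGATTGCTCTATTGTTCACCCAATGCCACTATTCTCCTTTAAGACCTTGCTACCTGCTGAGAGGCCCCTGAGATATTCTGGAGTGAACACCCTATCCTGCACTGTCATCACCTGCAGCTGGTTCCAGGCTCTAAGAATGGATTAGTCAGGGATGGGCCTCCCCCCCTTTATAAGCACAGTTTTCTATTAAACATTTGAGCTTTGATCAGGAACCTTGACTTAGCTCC
Gm33780: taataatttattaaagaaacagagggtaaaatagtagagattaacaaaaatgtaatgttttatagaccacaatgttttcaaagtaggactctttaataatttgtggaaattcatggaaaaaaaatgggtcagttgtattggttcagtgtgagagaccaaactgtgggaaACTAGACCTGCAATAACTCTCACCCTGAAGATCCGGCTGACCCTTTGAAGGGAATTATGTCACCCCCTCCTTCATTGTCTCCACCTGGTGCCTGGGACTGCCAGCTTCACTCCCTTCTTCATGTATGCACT
Gm34420: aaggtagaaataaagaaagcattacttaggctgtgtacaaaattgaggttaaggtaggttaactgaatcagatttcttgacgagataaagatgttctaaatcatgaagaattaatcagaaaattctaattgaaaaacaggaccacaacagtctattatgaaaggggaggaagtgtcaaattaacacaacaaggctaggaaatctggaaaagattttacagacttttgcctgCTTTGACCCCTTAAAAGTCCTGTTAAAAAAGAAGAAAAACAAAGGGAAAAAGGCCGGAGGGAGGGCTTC
Gm38584: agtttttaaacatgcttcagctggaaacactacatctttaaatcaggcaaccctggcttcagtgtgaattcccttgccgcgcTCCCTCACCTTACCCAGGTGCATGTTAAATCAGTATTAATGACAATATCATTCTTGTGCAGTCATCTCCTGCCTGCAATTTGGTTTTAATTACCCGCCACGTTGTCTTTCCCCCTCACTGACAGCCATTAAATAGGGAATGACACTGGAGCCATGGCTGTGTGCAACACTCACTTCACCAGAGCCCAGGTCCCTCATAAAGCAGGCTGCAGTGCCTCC

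The Gm32810 window is chr1:112416869-112417168 on the minus strand, in the desert between Dsel and Cntnap5a, and its region was called in 11 lists. It was the most GC-rich of the 6 windows, at 56% with 11 CpG dinucleotides, against a median of 48.3% and 4 CpG over all lncRNA windows. The Gm35827 window, chr15:24724667-24724966 on the plus strand, lay whole inside a region called in 7 lists from D0 to D8. The C330004P14Rik window, chr10:15791527-15791826 on the plus strand, also lay whole inside its region, which was called in every list from 2i to D4 and in none after D4. The Gm33780 window, chr2:98710342-98710641 on the minus strand, belonged to a region with the opposite timing, called at D4, D5, D7, D8, D10 and D15. The Gm34420 window, chr8:59478577-59478876, and the Gm38584 window, chr7:69490988-69491287, both on the minus strand, belonged to regions called in 6 lists each.

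Motifs were searched on both strands of these windows as letters only. AGATAA, the core bound by GATA factors, was in 10 of the 33 overlapped windows, among them the lower-case part of the Gm34420 window, and in 14% of all lncRNA windows and 11.2% of the windows of all genes. GGGCGG, the GC box of Sp1-type factors, was in 6 overlapped windows of 5 genes, and in 16.3% of lncRNA windows and 35.9% of all. Among the printed windows only that of Gm32810 holds it, in capitals. ATGCAAAT, the octamer bound by POU factors such as the Oct4 protein, was in 2 overlapping windows of 1 gene, Gm31415, and in 1.87% of lncRNA windows and 1.75% of all. None of these motifs contains another. A match describes the letters and does not show that a factor was bound.

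The number of desert regions was high in the 3 earliest lists (2i, D0 and D1), fell at D2 and D3, was highest at D4 and was low in the later lists. At 2i, 1528 desert regions were called, which is 25.2% of the 6072, while 31.7% of all 128679 regions were called in that list. D0 held 1806 (29.7%, against 27% of all regions) and D1 held 1802 (29.7%, against 20.9%). D1 was thus a short list in which desert regions were called more often than regions in general.

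At D2 the number was 657 (10.8% of desert regions, against 25.2% of all regions), and at D3 it was 331 (5.45%, against 27%). D4 held 2650 (43.6%, against 38%), the highest number of any list. At D5 it was 718 (11.8%, against 29%), and at D6 136 (2.24%, against 21.6%). D7 was the longest list, yet it held 791 desert regions (13%, against 44.6%). D8 held 424 (6.98%, against 34.9%), D10 held 339 (5.58%, against 20.2%) and D15 held 213 (3.51%, against 19.5%). From D5 on, every list called desert regions less often than regions in general, as did 2i, D2 and D3. This comparison depends on the merged set. In it, 4155 desert regions (68.4%) were called only within 2i, D0, D1 and D4, against 29.6% of all regions. Regions added by another list count as not called, so a low percent alone does not show that a list was poor in desert regions. Of the regions in the 2i list itself, 3.74% were desert regions, more than in D2, D3 or any list from D5 on.

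As a share of the regions in its own list, the desert class was 3.74% at 2i (Wilson 95% interval 3.56 to 3.93), 5.19% at D0 (4.96 to 5.43) and 6.7% at D1 (6.41 to 7.01). It was 2.02% at D2 (1.88 to 2.18), 0.952% at D3 (0.855 to 1.06) and 5.42% at D4 (5.22 to 5.62). The D1 share was 3.32 times that of D2, and the D4 share was 5.69 times that of D3 and 2.82 times that of D5. These intervals cover counting error only, and the sources used here do not give the read depth.

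The later shares were 1.92% at D5 (1.79 to 2.07), 0.49% at D6 (0.414 to 0.579), 1.38% at D7 (1.29 to 1.48) and 0.944% at D8 (0.859 to 1.04). They were 1.3% at D10 (1.17 to 1.45) and 0.849% at D15 (0.743 to 0.971). The lowest share, at D6, was 13.7 times below that of D1. In every list the share was under the 8.85% of the gene span that is desert sequence. In a mixed culture, fewer cells with an open site and a less open site in each cell cannot be told apart.

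**Figure D1:**
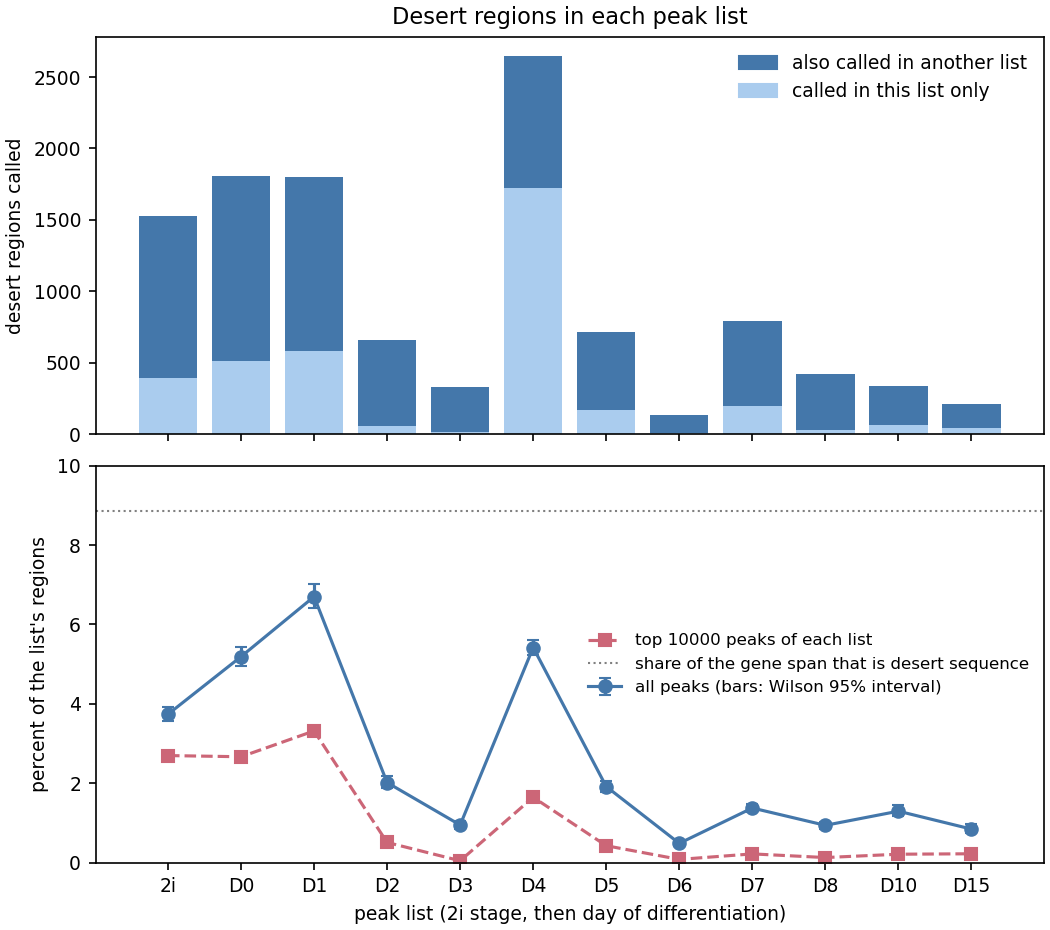
The upper panel plots the number of desert regions called in each of the 12 lists, split into those called in that list only and those also called elsewhere; the lower panel plots their percent of the regions of the list with Wilson 95% intervals, and the same for the top 10000 peaks of each list. D4 has the tallest bar (2650), most of it called at D4 only (1720). The share is highest at D1 in both series of the lower panel (6.7% for all peaks, 3.32% for the top 10000).

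The shares of the 11 lists with a day fell into 2 sets. D0, D1 and D4 were at 5.19% to 6.7%, and the other 8 were at 0.49% to 2.02%. Over all 11 lists the share was lower at later days (Spearman's rho = -0.72, two-sided permutation p = 0.0159, Benjamini-Hochberg adjusted over 5 share trends 0.0266). Pearson's r was -0.62 (permutation p = 0.0403, adjusted 0.101), which did not pass the threshold of 0.05, and -0.69 without D10 and D15. The adjusted p of rho no longer passed without D0, D1 or D2 (permutation p = 0.0818, 0.0824 and 0.0733). Without D4, the high list in the middle of the course, rho was -0.75 (adjusted permutation p = 0.0393).

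Regions at intermediate distance, over 50 kb and up to 500 kb from a gene, did not pass the same test (rho = -0.53, permutation p = 0.1, adjusted 0.1; r = -0.50, permutation p = 0.117). Their share of a list ran from 8.76% at D6 to 21.6% at D4. The log2 ratio of desert regions to these intermediate regions is the direct comparison of both classes. It was -1.39 at D1, -1.70 at D0, -1.99 at D4, -2.11 at 2i, -4.16 at D6 and -3.50 at D15. Over the 11 lists it fell with day (rho = -0.75, permutation p = 0.00975, adjusted 0.0266; r = -0.64, adjusted permutation p = 0.101, and r = -0.81 without D10 and D15). Without D0, D1 or D2 its adjusted p was 0.0818, 0.0824 and 0.0733.

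The lists also differed in how much evidence a peak of given height carried. Where fold enrichment was 4.9 to 5.1, the median -log10 p, called list weight here, rises with background coverage. It was 7.69 in the 2i list, 7.71 in D4, 8.75 in D0 and 9.14 in D1. Among the lists with few desert regions it was lowest at D5 (8.62) and D2 (8.65), then 9.64 at D7, 10.5 at D8 and 10.6 at D6, and highest at D10 (11.1), D15 (11.5) and D3 (11.6). Over 12 lists the desert share was lower where the weight was higher (rho = -0.74, permutation p = 0.00804, adjusted over 2 list properties 0.0161). Pearson's r was -0.69 (permutation p = 0.0161, adjusted 0.0321), and -0.63 without D3 and D15. The number of peaks in a list showed no such relation (rho = 0.14, permutation p = 0.668).

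Day and weight cannot be told apart in full: given the weight, the rank correlation of the desert share with day was -0.60 (adjusted permutation p = 0.0645). Lists close in weight were unlike in desert share in some pairs and alike in others. D1 had a weight near that of D7 (9.14 and 9.64) and a desert share of 6.7% against 1.38%. D4 and 2i, with the lowest weights, had shares of 5.42% and 3.74%, and D2 and D0 were also close in weight (8.65 and 8.75), at 2.02% and 5.19%. D2 and D5 (8.65 and 8.62) had like shares, at 2.02% and 1.92%, as did D3 and D15 (11.6 and 11.5), at 0.952% and 0.849%. These pairs are examples picked from the lists, and no cause was tested with them. Among the 10000 peaks of each list with the largest -log10 p, desert regions made up 2.7% at 2i, 2.67% at D0, 3.32% at D1 and 1.65% at D4. In the same selection they were 0.513% at D2, 0.431% at D5 and between 0.0521% (D3) and 0.228% (D15) elsewhere. The 4 lists with the highest shares were the same 4 in both versions.

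**Figure D2:**
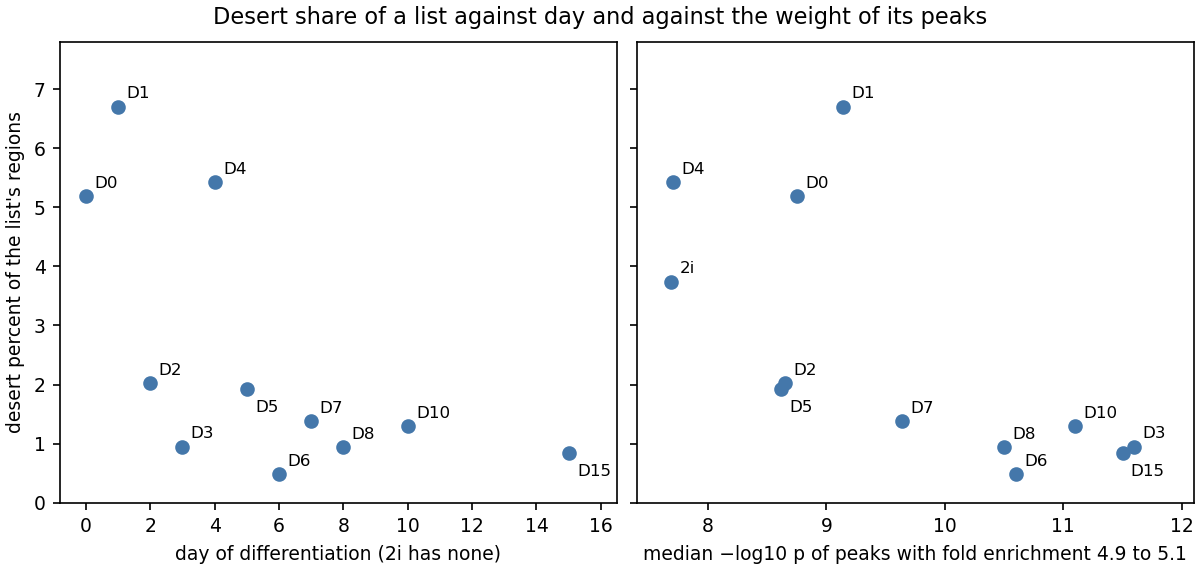
Each point is 1 peak list, with the desert percent of its regions on the vertical axis, against day on the left (11 lists) and on the right against list weight, the median −log10 p where fold enrichment was 4.9 to 5.1, (12 lists). D0, D1 and D4 stand above 5% in both panels, and the lists of highest weight (D3, D10 and D15) are at 1.3% or lower.

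The change with distance was gradual and had no step at 500 kb. At D1, 23% of the regions inside gene bodies were called, 14.5% of those at 50 to 100 kb, 25% at 500 to 600 kb and 38.4% of those over 1500 kb from a gene. D0 rose likewise from 20.4% at 100 to 250 kb to 36.4% over 1500 kb, and 2i from 22% at 500 to 600 kb to 30.5%. In these 3 earliest lists the most remote regions were thus called more often than those at intermediate distance. Inside gene bodies 2i called 35.2% of regions, more than over 1500 kb, whereas D0 called 30.2%, fewer than over 1500 kb.

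At D2, D3 and from D5 on, a much lower percent of the most remote regions was called than of those inside gene bodies. At D2, 31.4% of regions inside gene bodies were called and 13% of those over 1500 kb away, and at D3 33.9% and 6.31%. At D6, 29.2% of regions inside gene bodies were called, and 1.44% of those over 1500 kb away. At D7 the values were 53.4% and 9.37%, and at D15 26.1% and 2.52%. D4 had another shape, between 34.3% and 45.5% at every distance, with the highest value at 500 to 600 kb.

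The 1870 regions just under the limit, at 400 to 500 kb, and the 1400 just above it, at 500 to 600 kb, followed the same course. Their shares of the list were 1.62% and 1.3% at D1, 1.65% and 1.3% at D4, 0.27% and 0.191% at D6, and 0.435% and 0.263% at D15.

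**Figure D3:**
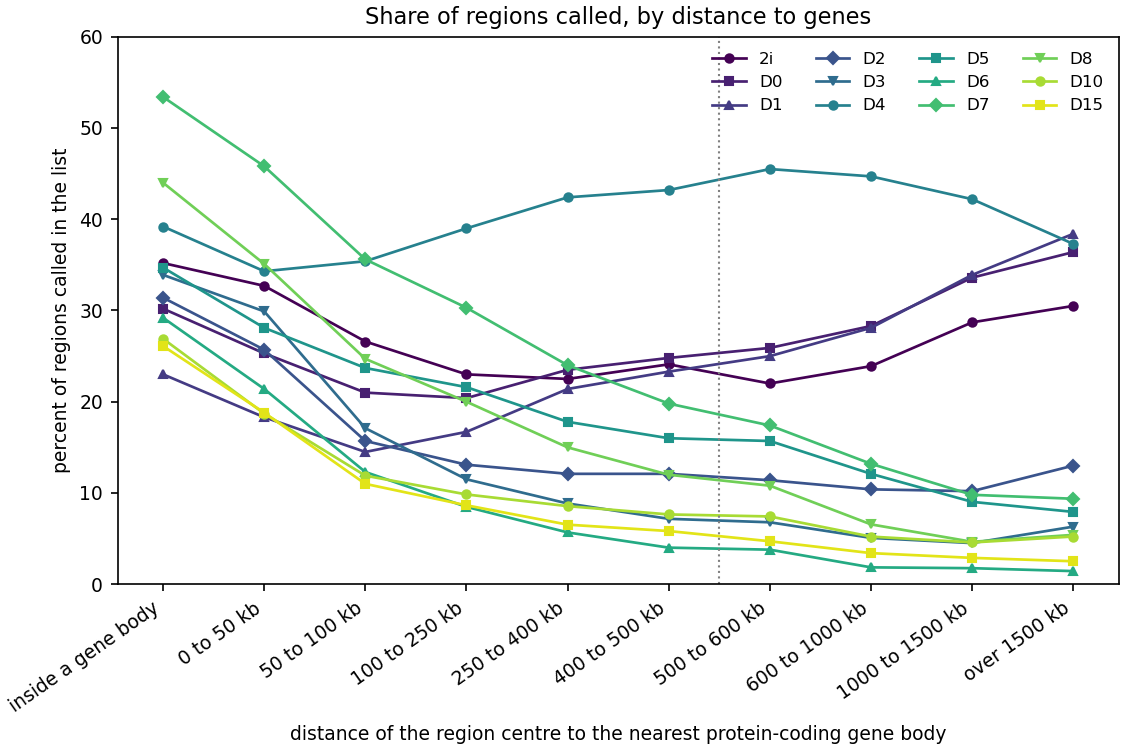
For each list, the line gives the percent of merged regions called, in 10 classes of distance from the region centre to the nearest protein-coding gene body; the dotted line marks 500 kb. The D0 and D1 lines rise to 36.4% and 38.4% over 1500 kb, while the D7 line falls from 53.4% inside genes to 9.37%. Regions added to the merged set by another list count as not called.

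In each pair of neighbouring lists a lower percent of the desert regions of the first list was called again in the second than of other regions, without a test of the difference. Read backwards the order was not the same throughout: the percent of the second list already called in the first was higher for desert regions at D2, D3 and D6. Of the 1528 called at 2i, 913 (59.8%) were called again at D0, against 64.7% of other regions. Of the 1802 at D1, 466 (25.9%) were called at D2, against 71.2% of other regions. Of the 657 called at D2, 70.9% had been called at D1, against 56.1% of other regions, and 123 had been called in no earlier list. D4 then added 2490 desert regions not called at D3, and 357 of its 2650 (13.5%) were called at D5, against 53.3% of other regions.

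The Jaccard index, the regions called in both lists over those called in either, was highest for 2i with D0 (0.377) and lowest for D3 with D4 (0.0567) among neighbouring lists. For other regions those pairs gave 0.543 and 0.341. The index is held down where 2 lists differ in size, and D3 held 331 desert regions against 2650 at D4. Of those at D3, 48.3% were called again at D4, against 59.5% of other regions. Desert regions ran from 136 to 2650 per list and all regions from 25076 to 57402, so this limit weighs more on the desert index. Over the 55 pairs of the 11 dated lists, the index of desert regions fell with the difference in day (rho = -0.59, permutation of days over lists p = 0.00023, adjusted 0.00046). For other regions rho was -0.52, and the difference between both, -0.07, was not shown to differ from 0 (permutation p = 0.561). These pairs share lists, which the permutation of whole lists keeps intact.

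Most desert regions were seen once. Of the 6072, 3769 (62.1%) were called in 1 list, against 43.7% of all regions, and the median desert region was called in 1 list. At the other end 240 (3.95%) were called in 6 or more lists, against 18.7% of all regions, and 8 (0.132%) in all 12, against 8.62%. Desert regions were also narrower, with a median width of 407 bp against 502 bp. Their median largest fold enrichment, the signal of a peak over its background as the authors' peak caller gave it, was 4.41 against 4.88. Both the merged width and the largest value can grow with the number of lists that called a region. That number had a mean of 1.88 for desert regions, against 3.4 for all regions. Within a list, the median desert peak stood between the 31.2 percentile (D10) and the 46.6 percentile (2i) of fold enrichment.

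Calls in a single list came mostly from 4 lists. D4 alone gave 1720, or 64.9% of its desert regions, while 31.9% of all D4 regions were called in D4 only. D1 alone gave 579 (32.1% of its desert regions, against 9.37% of all its regions) and D0 alone 510 (28.2%, against 10.8%). 2i alone gave 391 (25.6%, against 19.4%), and regions called only at 2i were 6.44% of desert regions and 6.17% of all regions. D6 alone gave 4 (2.94%, against 5.24%) and D3 alone 16 (4.83%, against 10.2%). In all, 4155 desert regions (68.4%) were called only within 2i, D0, D1 and D4, against 29.6% of all regions. These 4 lists had the highest desert shares, so a percent above that over all regions follows in part from the choice of lists. Of the 4155 regions, 2132 were called only in 2i, D0 or D1 (35.1% of desert regions, against 16% of all regions). The most frequent pattern of more than 1 list was 2i with D0 and D1 (233 regions, 3.84% of desert regions, against 1.46% of all). It was followed by 2i with D0 (181, 2.98% against 2.37%) and D0 with D1 (160, 2.64% against 0.678%). In total 306 different patterns of calls were found.

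Few desert regions were absent at the start and called at both late time points, and such regions may have been called from D1 on. The late-gained class, called at D10 and D15 and not at 2i or D0, held 82 desert regions (1.35%, Wilson interval 1.09 to 1.67), against 3.8% of all regions and 3.28% of those at 50 to 500 kb. The early-lost class, called at 2i and D0 and not at D10 or D15, held 854 (14.1%, 13.2 to 15), against 9.56% of all regions and 11.3% at 50 to 500 kb. The transient class, found in 2 or more lists in a row within D1 to D8 but absent from 2i, D0, D10 and D15, held 353 (5.81%, 5.25 to 6.43), against 14.7% and 13.3%. Transient desert regions numbered 213 when D4 was left out and 219 when D5 was. A region missing from a list is one that was not called there, and list weight was higher at D10 and D15 than at 2i and D0.

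The fullest deserts spanned 2.68 to 4.54 Mb, against a median of 1.5 Mb over all. Of the 10 fullest, 8 had an adhesion gene at a border, as had 69 of all 259 deserts. Those 69 held 99.6 of the 230 Mb of desert sequence. The desert between Pcdh20 and Pcdh9, protocadherins that join neural cells, spans 4.54 Mb (chr14:88471397-93013699) and held 164 desert regions. It had 70 at D0, 62 at D1 and at D4, and 53 at 2i, but 18 at D2 and 3 at D3. Of the later lists, D7 had 15, D5 11, D8 7, D10 5, D15 4 and D6 1. The 3 earliest lists and D4 were high and D3, D6 and D15 low, as over all deserts.

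Between the cadherin genes Cdh8 and Cdh11 (chr8:99417667-102632094) lay 122 desert regions, 74 of them called at D4 and 35 at 2i. The deserts of Olfm4 and Pcdh17 held 116, those of Tenm3, a teneurin that guides the wiring of neurons, and Aga held 111, and those of Cntnap5b and Cdh20 held 107. Next came Dsel/Cntnap5a and Got2/Cdh8 with 97 each and Pcdh7/G6pd2 with 96. Of the 10 fullest, 2 had no gene of the adhesion list. These were Kcnt2/Cdc73 (97 regions), beside a potassium channel gene, and Nr2f1/Arrdc3 (101), beside an orphan nuclear receptor gene of the developing nervous system. Nr2f1/Arrdc3 was the densest of the 10, with 60 desert regions per Mb of sequence more than 500 kb from a gene.

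Together the 10 fullest deserts held 1108 desert regions (18.2%), while 17 deserts held 1 each. Of the 99 deserts with 20 or more desert regions, 61 had their highest count at D4, 18 at D1, 14 at D0, 4 at D7, 1 at 2i and 1 at D5. As a share of each list, 52 of the 99 peaked at D1 and 29 at D4. By count, Pcdh7/G6pd2 had 46 at D1 and 21 at D4, while Adgrl2/Adgrl4, beside 2 adhesion receptor genes, had 4 at 2i, 9 at D1 and 51 at D4.

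**Figure D4:**
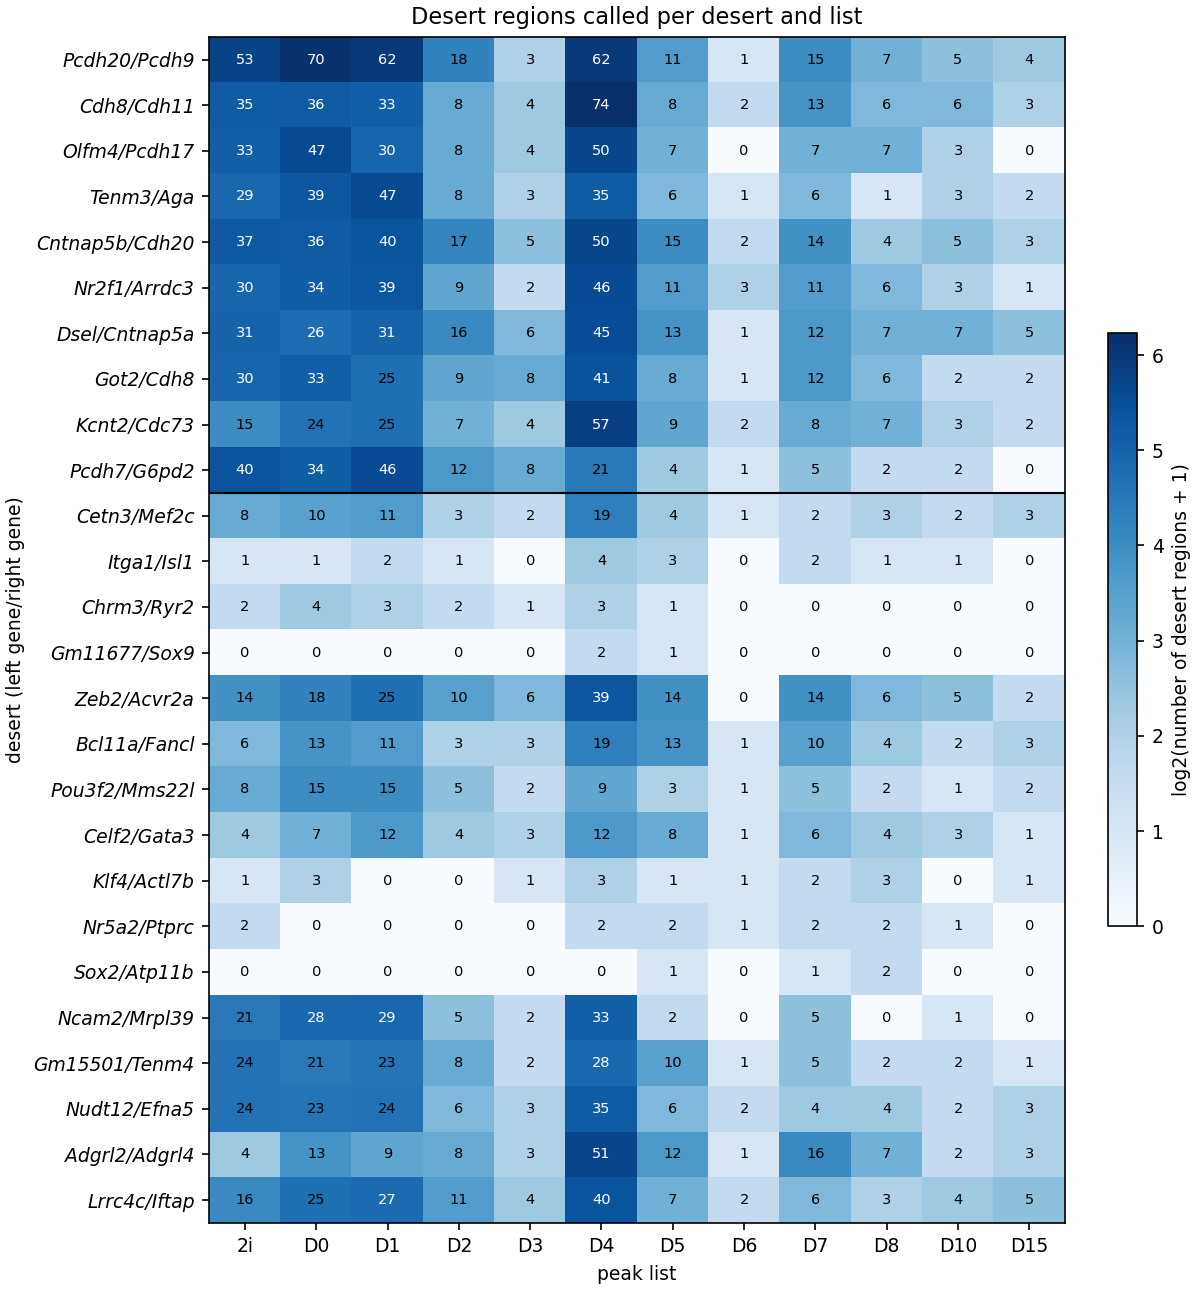
Each row is a desert named by its left and right flanking genes, each column a list, and each cell gives the number of desert regions called there, shaded on a log2 scale. The 10 fullest deserts are above the line, and below it are deserts with a flanking gene of 1 of 4 gene lists; the columns for 2i, D0, D1 and D4 are darkest, with 74 regions at D4 for Cdh8/Cdh11.

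Flanking genes were compared with 4 lists of genes. Genes for neural adhesion and guidance (117 of 118 matched by symbol) flanked 69 deserts with 2990 desert regions, 49.2% of all. These deserts also held 99.6 of the 230 Mb of desert sequence, at 30 desert regions per Mb against 26.4 over all deserts. Of the desert regions called in a list, those beside such genes were 52.7% at D1, 50.5% at 2i, 50.4% at D0 and 50.1% at D4. D2 (46.7%), D3 (43.2%), D15 (42.3%), D10 (41.9%) and D7 (40.1%) followed, and D5 (38.9%), D8 (37%) and D6 (33.8%) were lowest. The share was lower at later days (rho = -0.69, permutation p = 0.0224, adjusted 0.028; r = -0.55, adjusted permutation p = 0.117, and r = -0.83 without D10 and D15).

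Genes for developmental transcription factors (252 of 255 matched) flanked 31 deserts with 534 desert regions, 8.79% of all, on 17.4 Mb at 30.8 per Mb. Their share of the desert regions of a list was lowest at 2i (7.66%), D0 (8.36%), D4 (8.87%), D1 (8.88%) and D2 (9.28%). It was 10.3% at D3, 10.5% at D7, 10.6% at D10 and 11.3% at D15, and highest at D6 (12.5%), D5 (13.6%) and D8 (13.7%). The share was higher at later days (rho = 0.74, permutation p = 0.0131, adjusted 0.0266; r = 0.50, adjusted permutation p = 0.117, and r = 0.78 without D10 and D15). Behind these shares stand few regions late in the course: 17 at D6, 36 at D10 and 24 at D15. Both relations lost their call without D0, D1, D2 or D3 and, for the adhesion list, also without D4. Among the top 10000 peaks of each list their rho were -0.11 and 0.50 in the order transcription factors, adhesion. Both signs were opposite there, and neither passed the threshold (adjusted permutation p = 0.751 and 0.154). Few desert regions remained in that selection, with 5 at D3, 8 at D6 and 17 at D15.

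Cardiac genes flanked 6 deserts with 71 desert regions, of which 37 were called at D4, 13 at 2i, 17 at D0, 20 at D1, 13 at D5 and 1 to 9 in each other list. They made up 1.17% of all desert regions and 0.735% (D6) to 1.88% (D15) of those called in a list. Cetn3/Mef2c, beside a transcription factor of heart and muscle, held 36, with 19 at D4 and 3 at D15. Itga1/Isl1, beside a factor of second heart field progenitors, held 9, of which chr13:115610585-115611160, 508.9 kb from the nearest gene, was called at D5, D7, D8 and D10 with a fold enrichment of 12.2 at D7. Chrm3/Ryr2, beside the calcium release channel gene of heart muscle, held 6, none called after D5. Gm11677/Sox9, beside a factor of cartilage and heart valve development, held 3, called at D4 or D5 only.

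Of the other transcription factor deserts, Zeb2/Acvr2a (Zeb2 is a repressor active in epithelial to mesenchymal transition) held 80 desert regions, with 39 at D4, 14 at D5, 14 at D7 and 0 at D6. Bcl11a/Fancl, beside a zinc finger repressor gene of blood and brain, held 42. Its region chr11:25057138-25057859 was called at D1 and in every list from D5 to D15, with a fold enrichment of 11 at D7. Pou3f2/Mms22l, beside a neural POU factor, held 34, and its region chr4:23982790-23983696, inside the lncRNA gene Gm27243, was called in every list except D15. Celf2/Gata3 held 33, of which 12 were called at D1 and 12 at D4.

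Naive pluripotency genes flanked 3 deserts with 15 desert regions. Klf4/Actl7b held 7, Nr5a2/Ptprc 5 and Sox2/Atp11b 3, and the genes Klf4, Nr5a2 and Sox2 encode factors of the stem cell network. Of the 15, 3 were called at 2i, 3 at D0, 0 at D1 and D2, and 7 at D8. The region chr3:35231128-35231824 beside Sox2, 522.6 kb from a gene, was called at D7 and D8 only. These counts are too small to compare with the other lists. Deserts beside neither transcription factor nor adhesion genes held 2559 desert regions (42.1%), and deserts beside both held 11.

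The 8 desert regions called in all 12 lists lay in 8 deserts on 6 chromosomes. The one with the largest lowest fold enrichment, chr2:98666270-98667320 between Lrrc4c and Iftap, had 9.43 at 2i and 11.8 at D15. A neighbouring region, chr2:98662515-98662811, was called in every list except 2i, at 7.13 to 10.6. This stretch of mouse chromosome 2 is known from other sequencing data for piling up reads, and no list of such stretches was applied here. The second, chr17:60789943-60790671 between Nudt12 and the ephrin gene Efna5, lay 1777 kb from a gene, with a fold enrichment of 5.45 at D3 and 20.8 at D8.

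The other 6 of these regions were chr16:86550719-86551382 (Adamts5/N6amt1), chr8:50915230-50917067 (Tenm3/Aga), chr1:142829183-142829791 (Kcnt2/Cdc73), chr18:28077399-28078336 (Celf4/Pik3c3), chr16:77644022-77644748 (Usp25/Cxadr) and chr1:102255271-102256658 (Cntnap5b/Cdh20). Their lowest fold enrichments were 3.16 to 3.65 and their largest 8.63 to 15.6. The Celf4/Pik3c3 region lay 2188 kb from a gene and overlapped the lncRNA gene Gm33860. The same desert held the most remote desert region, chr18:28015409-28015928, which lay 2.25 Mb from the nearest gene and was called at D0 and D1 only. A further 17 desert regions were called in 11 lists, and the missing list was D3, D6 or D15 for 4 each, 2i for 3 and D1 or D7 for 1 each.

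Among late-gained desert regions, the highest fold enrichment at D15 was 11.8, at chr4:27861081-27861473 between Manea and Epha7, an ephrin receptor gene. That region was called from D1 on in every list. The region chr5:42685490-42686390 (Bod1l/Gm46911) was called in the last 4 lists only, at 9.06 (D7), 9.68 (D8), 9.75 (D10) and 11.7 (D15). The region chr12:94154957-94155724 (Gm40892/Flrt2), beside an adhesion and guidance gene, had the same 4 lists, at 9.62, 5.27, 5.84 and 9.49. The region chr15:62930174-62930626 lay in the desert between Myc, the proto-oncogene, and Gsdmc, 845.6 kb from a gene, and had a fold enrichment of 11.1 at D15. It was also called at D1, D2, D4, D5, D6, D8 and D10. The fifth, chr1:94773217-94773589 (Pdcd1/Fam174a), had 11.5 at D15 and was also called at D4, D8 and D10.

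Of the early-lost desert regions, the region chr4:38370858-38371578 (Lingo2/1700009N14Rik) had the highest fold enrichment at 2i, 19.3, and was called in every list to D5, where it had 12.3, and in none later. The region chr3:6094102-6094812 (Pex2/1700008P02Rik) had 14.9 at 2i, 9.25 at D0 and 7.48 at D1 and was not called after D1. The region chr5:56121952-56122626 (Stim2/Pcdh7) had 14.4 at 2i, 11.8 at D0 and 3.9 at D2, and was not called at D1. The region chr12:63393392-63394022 (Lrfn5/Fscb) had 14 at 2i, 14 at D0, 12.3 at D1 and 8.86 at D2, its last list. The region chr4:26944321-26945178 lay in the same Manea/Epha7 desert as the leading late-gained region and was called at 2i (14.1), D0 (9.33) and D1 (10.4) only. Fold enrichments of different lists served only to choose which regions to name and to describe them, and no change between lists is read from them.

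The transient region with the largest fold enrichment, chr13:3037117-3037395, lay at the start of the assembled chromosome before Gdi2, at 15.2 (D2) and 24.3 (D3). At 500.8 kb from a gene it was also just past the limit. Next were chr5:80379695-80380054 (Igfbp7/Adgrl3), with 11.7 at D4 and 18.2 at D5, and chr2:137664892-137665320 (Jag1/Btbd3), beside the Notch ligand gene Jag1, with 16.7 at D4, 7.67 at D5 and 6.95 at D6. The region chr3:150538680-150539313 (Adgrl2/Adgrl4) was called from D4 to D8, with 15.6 at D5. The region chr5:46992354-46992922 (Lcorl/Slit2), beside a gene for a secreted guidance protein, was called from D5 to D8, also with 15.6 at D5.

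**Figure D5:**
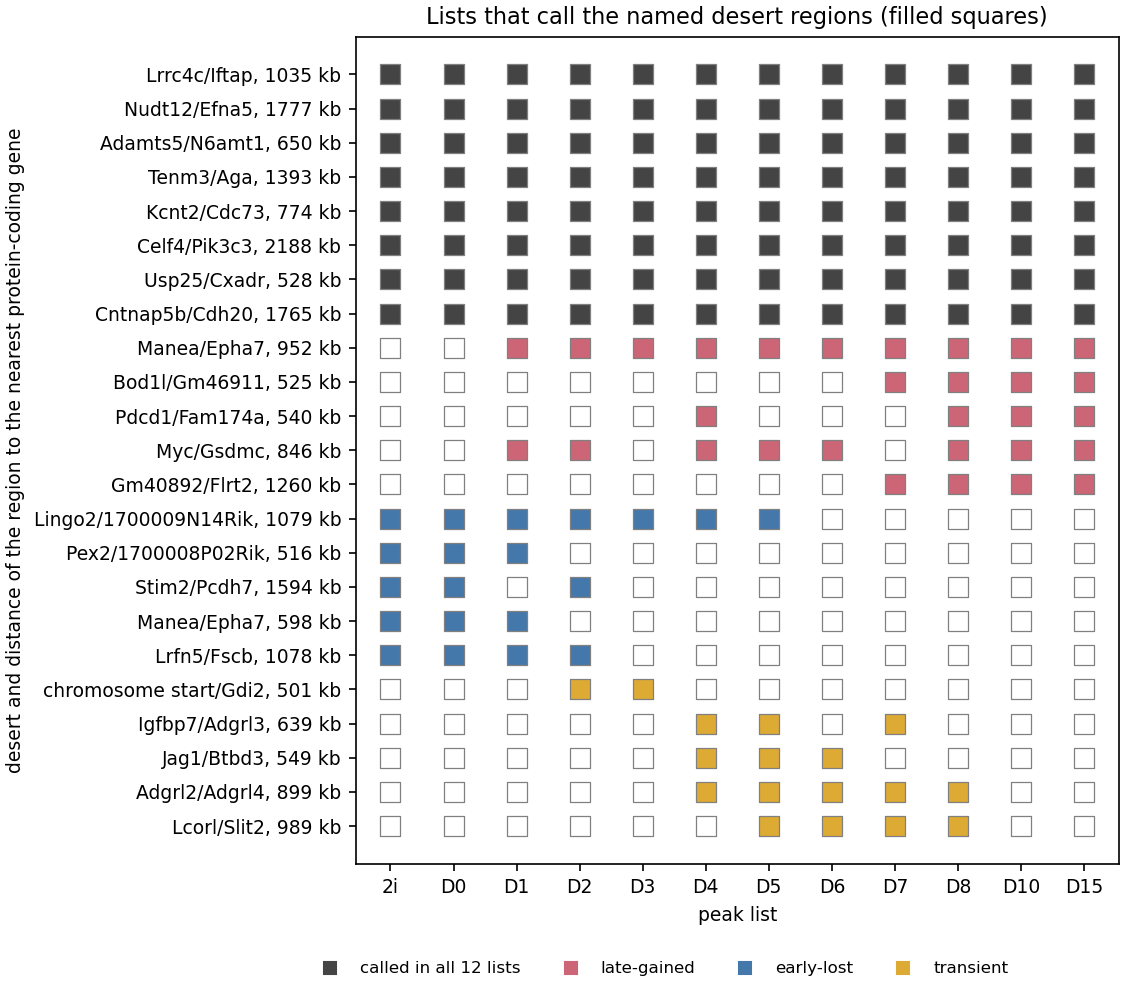
Rows are the named desert regions, with flanking genes and the distance in kb to the nearest protein-coding gene, columns are the 12 lists, and filled squares mark the lists that called the region. The 8 regions at the top are filled in every list, the late-gained regions at D10 and D15, the early-lost ones at 2i and D0, and the transient ones only between D1 and D8.

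Of the desert regions, 5318 (87.6%) overlapped no annotated gene of any kind, 449 (7.39%) overlapped a lncRNA gene body and 128 (2.11%) a pseudogene. The lncRNA share was 12.9% among desert regions called in 6 or more lists and 6.98% among those called in 1. Of all desert regions, 2715 (44.7%) had another within 10 kb, and the median distance to the nearest other was 11.9 kb. On autosomes there were 18.1 (chromosome 15) to 44.1 (chromosome 13) desert regions per Mb of desert sequence. Chromosome X, with 14.7 Mb of desert sequence, held 77 desert regions, or 5.24 per Mb. X held 2697 regions of any kind, and desert regions were 2.86% of them. On autosomes that share ran from 1.07% (chromosome 19) to 10.3% (chromosome 14). The antigen receptor loci, whose gene segments are not counted as protein-coding genes in the annotation, accounted for 3 of the deserts and 176 of the desert regions.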

How the data were processed

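ATAC-seq libraries were made from detergent-extracted nuclei with a transposase kit, per the labels' protocols. The submitters' processing notes name mm10 as the build and, without order or settings, MACS2 2.1.1, Bowtie2 2.3.2, cutadapt 2.10, SAMtools 1.5 and Picard. The sources used here do not give read depth, the way replicates were combined or any shift of reads for the transposase. Each deposited peak carries a fold enrichment (a linear ratio of signal to background), a −log10 p-value, a −log10 q-value, a display score and a summit offset from the authors' peak caller. The display score in the deposited lists was not used. The lowest −log10 q was 1.3 to 1.31 in every list.

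Peaks were merged with bedtools 2.31.1, and a region was called in a list when 1 bp or more of it was covered by a peak there. Distances were taken from region centres to the bodies of 21631 protein-coding genes (RefSeq, GRCm38.p6), a table without exons, so exon or intron is not given. Trends over lists used two-sided permutation tests with 100000 resamples (SciPy 1.17.1, NumPy 2.4.6), the scripts of which were tested on simulated data, and adjusted p-values follow Benjamini-Hochberg with a threshold of 0.05. The list weight and the top 10000 peaks were added after seeing the data, and the grouping of 2i, D0, D1 and D4 was not planned beforehand. Deserts were named by a rule: the 10 with most desert regions, up to 5 more per gene list by the same count, and in each the region called in most lists, and 2 of these deserts are not reported here. Regions were named if called in all 12 lists, if among the 5 of a class with the largest fold enrichment (at D15 for late-gained, at 2i for early-lost, in any list for transient), or if farthest from a gene. Windows were printed if their region was called in 6 or more lists. The members and the gene lists were chosen with earlier results of these data known. Since 1 list stands for both replicates, p-values measure only how lists are ordered. Signal tracks named in the labels were not used here.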

Additional observations from a re-analysis of the deposited data

How the results depend on the processing

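Settings were changed 1 at a time, and rho below is that with day, with adjusted permutation p in parentheses. The cause of each change was not tested. The main rho of the desert share, -0.72, was -0.65 (0.0593) with a limit of 250 kb, -0.58 (0.0817) when peaks had to cover 50% of a region, -0.56 (0.152) with distance to any annotated gene, -0.56 (0.154) for the top 10000 peaks and -0.60 (0.0645) given list weight. In the same order the log2 ratio gave -0.62 (0.0593), -0.62 (0.0791), -0.51 (0.152), -0.55 (0.154) and -0.65 (0.0549). The share of regions at 50 to 500 kb passed the threshold with summits as the unit, at -0.62 (0.0479). The share beside transcription factor genes lost its call with 50% cover (0.75, 0.0563), 1000 kb (0.21, 0.675) and given list weight (0.69, 0.0549), and was reversed for the top 10000 peaks (-0.11, 0.751). The share beside adhesion genes lost its call for peaks of −log10 q 5 or more (-0.49, 0.162), 50% cover (-0.64, 0.0791), 1000 kb (-0.11, 0.749), equal numbers of top peaks (-0.54, 0.0931) and given list weight (-0.65, 0.0549). It was reversed with any annotated gene (0.35, 0.285) and for the top 10000 peaks (0.50, 0.154). With any annotated gene the Jaccard rho was -0.33 (0.0821) and its difference from other regions had the opposite sign, at 0.18 (0.303). Behind these values stand few regions, with 1 at D3, 2 at D6, 3 at D10 and 3 at D15. Leaving out 1 list at a time gave -0.81 to -0.65 for the desert share, -0.84 to -0.68 for the log2 ratio, 0.65 to 0.79 for transcription factor genes, -0.77 to -0.60 for adhesion genes and -0.69 to -0.48 for the Jaccard index. It gave 4352 (without D4) to 6068 desert regions and 213 to 350 transient ones. The number of desert regions was 12979 at 250 kb, 1973 at 1000 kb, 2605 by the same q filter, 3529 with equal numbers of peaks and 72 with any annotated gene. Late-gained regions then numbered 263 at 250 kb, 15 at 1000 kb, 46 by the q filter and 1 by any gene. Early-lost regions numbered 1689, 337, 473 and 17 in that order. Transient regions numbered 1089 at 250 kb, 70 at 1000 kb, 194 with equal peaks and 4 by any gene. Regions in all 12 lists numbered 33 at 250 kb, 5 at 1000 kb, 2 by the q filter, 2 with equal peaks, 3 with 50% cover and 0 by any gene. Regions in 1 list numbered 7703, 1222, 1386 and 2013 under the first 4 of these and 37 by any gene. The Jaccard tests have no version with summits, and the transcription factor share had no spread with any annotated gene. No paired analysis was possible because each deposited list stands for both replicates of its time point. Depth limits are unknown, since the lists hold no read counts.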
